A study of Mus musculus with 13 samples.

Results

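The 59 genes described here are the nuclear genes for complexes II to V of oxidative phosphorylation in mouse retina, with their assembly factors. They were chosen by gene symbol and a minimum of reads, with earlier results of these data known. The symbols were those of succinate dehydrogenase and its assembly factors (complex II), and of the ubiquinol-cytochrome c reductase and Cyc1 (complex III). Those of cytochrome c oxidase and its numbered assembly factors (complex IV), and of ATP synthase and its inhibitor Atpif1 (complex V), were also taken. Among 29700 nuclear genes in the count table, 65 symbols matched, 3 pseudogene symbols were removed, and 59 of the remaining 62 had at least 10 reads in at least 4 of 13 libraries. Complex II contributed 8 genes, complex III 11, complex IV 23 and complex V 17. The 3 genes below that minimum were Cox6a2 with 0 to 8 reads per library, Cox6c2 with 0 to 4 and Cox7b2 with 0 or 1. Uqcrfs1, the Rieske iron-sulfur subunit of complex III, was not analysed here.

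RNA came from 1 retina per mouse. The TMB group held 5 Rpe65-/- mice, labelled as on a C57BL/6J background, whose chow carried tamsulosin, metoprolol and bromocriptine from postnatal day 22. The vehicle group held 4 Rpe65-/- mice with the same background label on the base chow, and the WT group held 4 C57BL/6J mice aged 2 months on the base chow. Rpe65-/- retinas were taken at postnatal day 64. Rpe65 encodes the isomerase of the pigment epithelium that remakes the chromophore of visual pigments, and its loss is a model of Leber congenital amaurosis. Each group mixed females and males, and the Rpe65-/- mice, being germline nulls, lack the gene in every cell. The study's reporting summary calls the exact background of the Rpe65-/- strain unknown and likely mostly C57BL/6J.

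Oxidative phosphorylation passes electrons through membrane complexes of the mitochondrion and stores the energy as a proton gradient. Complex II takes electrons from succinate and is also an enzyme of the citric acid cycle; it pumps no protons, and all of its subunits are encoded in the nucleus. Complex III carries electrons from ubiquinol to cytochrome c, complex IV passes them to oxygen, and complex V lets the protons flow back to make ATP. Complexes III, IV and V each combine nuclear subunits with subunits made from mitochondrial DNA. Photoreceptors pack mitochondria into their inner segments and are among the cells that use the most ATP.

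Libraries held 14155121 to 17186113 counted reads. Rpe65 had 0 to 7 reads in TMB libraries, 1 to 8 in vehicle libraries and 72 to 226 in WT libraries. The female WT library numbered 4 (WT F4) stood apart from the other WT libraries and near the vehicle ones in the members' levels. Each main count is therefore also given without it. Because the members' own values picked out WT F4, p-values and calls without it describe how the results depend on it. They are not independent support for a change. The vehicle library labelled female and numbered 2 (vehicle F2) had 1 read of Xist, the female-specific RNA, and 1400 reads of the Y-linked Eif2s3y, which goes against its label. CPM are counts per 1000000 nuclear counts, without TMM scaling in sums of markers and after TMM scaling in values of single genes. Cone markers summed to 114 to 174 CPM in TMB, 133 to 194 CPM in vehicle and 1195 to 1342 CPM in WT retinas. All 8 were lower in vehicle against WT. Rod markers summed to 45189 to 48722 CPM in TMB, 43644 to 51948 CPM in vehicle and 53614 to 67261 CPM in WT retinas, with 67261 CPM in WT F4. Reactive glia markers (209 to 282, 189 to 369 and 79.3 to 102 CPM in TMB, vehicle and WT) and Mueller glia markers (2951 to 3299, 3053 to 4146 and 2636 to 2852 CPM) were also uneven. So were microglia markers (33.6 to 42.0, 41.0 to 48.3 and 25.0 to 27.5 CPM, 4 of 6 higher in vehicle against WT). Pigment epithelium markers, Rpe65 among them, had 114 to 153, 94.4 to 443 and 48.2 to 99.6 CPM, with 3 of 6 higher and 1 lower. Lens genes reached 1580 CPM in 1 vehicle library and 594 CPM in WT F4. The part of these cell mixtures in the values below was not tested, and in bulk tissue fewer cells of a type and less RNA per cell cannot be told apart.

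All 59 members passed the filter of the test. Among them 20 overlap another gene and 10 share over 20% of their 50-base words with other genes (Sdhaf1, Uqcrc2, Cox5b, Cox7c, Cox11, Cox16, Atp5h, Atp5j, Atp5o and Atpif1), so that reads may be split or shared there. Genes were tested with edgeR's quasi-likelihood F test in 1 fit of all 13 libraries and called changed at a Benjamini-Hochberg adjusted p under 0.05 over 16782 genes. Log2 fold changes are given ± SE, and values per library stand in the order F1, F3, F4, M5 and M6 for TMB, F1, F2, M4 and M5 for vehicle, and M1, M2, F3 and F4 for WT. In vehicle against WT, 12 of 59 members (20.3%) changed, against 33.9% of all genes tested. Of these, 7 rose, against 15.7% of all genes called higher, and 5 fell, against 18.3% called lower. Complex V held 7 of the 12 calls, complex IV 3, complex III 2 and complex II 0. Between TMB and WT, 3 members changed, against 9.53% of all genes. Atp5g2 rose (4.51% of all genes were higher) while Sdha and Uqcrb fell (5.02% were lower).

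No member differed in TMB against vehicle, where 0.0% of all genes were called by edgeR. At an unadjusted p under 0.05 there were 16 members, 14 of them lower in TMB, and 3064 of all genes, 1413 of them lower. The smallest adjusted p of a member was 0.253 and of any gene 0.0971. DESeq2 called 1 member (Atpif1), against 0.381% of all genes, and limma-trend 0, against 0.0%. When TMB and vehicle libraries were fitted without the WT ones, 1 member was higher and 18 were lower in TMB, against 7.11% and 7.6% of 16339 genes.

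The signs of the fold changes were uneven between complexes. Between TMB and vehicle, all 11 members of complex III and 18 of 23 of complex IV had a lower mean in TMB, with median log2 fold changes of -0.25 and -0.16, while complex II (median -0.02, 4 of 8 lower) and complex V (median 0.0024, 8 of 17 lower) were balanced. In vehicle against WT the medians were 0.04 for complex II, 0.17 for complex III, 0.31 for complex IV and -0.08 for complex V, beside 0.02 over all genes. For TMB against WT they were -0.17, -0.05, 0.07 and -0.07 in the same order, beside -0.0027 over all genes. Leaving out 1 library moved the vehicle-against-WT medians to 0.091 to 0.34 in complex III, 0.24 to 0.48 in complex IV, -0.12 to -0.041 in complex V and -0.0076 to 0.095 in complex II, where the sign turned without vehicle F2 or WT M2. The highest value of each came without WT F4 (0.34, 0.48, -0.041 and 0.095). For TMB against WT they ran from -0.20 without WT F3 to 0.11 without WT F4 in complex III and from -0.032 to 0.23 in complex IV, which was negative without WT M1 or F3 and highest without WT F4. Groups without overlap between any libraries were found for 2 members higher and 6 lower in vehicle against WT (8.54% and 8.35% of all genes), for 0 higher and 2 lower in TMB against WT (5.24% and 5.06%), and for 1 higher and 17 lower in TMB against vehicle (6.2% and 8.05%).

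**Figure D1:**
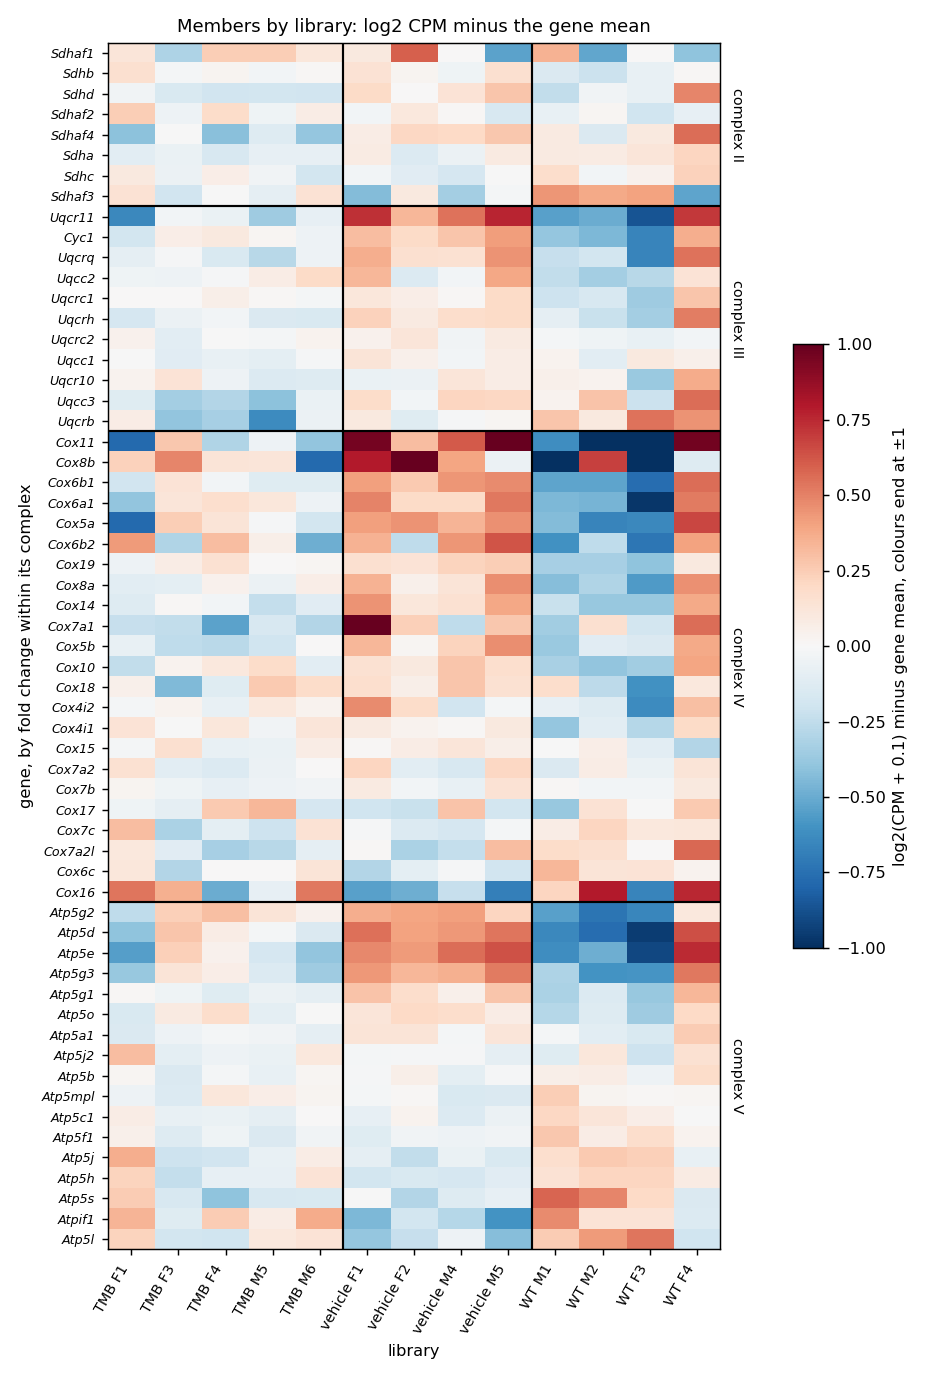
Heat map of the 59 members (rows, by complex and by vehicle-against-WT fold change) in 13 libraries (columns); colours show how far log2(CPM + 0.1) of a gene lies from its average, and end at 1 in either direction. In complexes III and IV the vehicle libraries and WT F4 are mostly red and the other 3 WT libraries mostly blue, and complex II shows the weakest colours among subunits.

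The counts depended on WT F4. Without it, edgeR called 36 members in vehicle against WT (27 higher, 9 lower; 55.6% of 17092 genes), 25 in TMB against WT (18 higher, 7 lower; 38.0%) and 18 in TMB against vehicle (1 higher, 17 lower; 16.0%). All 12 members called with every library were called in the same direction without WT F4. Only Atp5g2 and Cox19 among them were called in every fit that left out 1 library. Per complex, vehicle against WT then had 3 of 8 calls in complex II, 6 of 11 in complex III, 13 of 23 in complex IV and 14 of 17 in complex V, where 7 rose and 7 fell. TMB against vehicle had 2, 5, 6 and 5 calls in complexes II to V, all lower in TMB except Atpif1. WT F4 belongs to neither of these groups and enters this comparison through the estimate of spread shared by all libraries. Leaving out any other single library gave 0 calls there. Leaving out another WT library instead gave fewer calls in vehicle against WT: 4 without WT M1, 4 without WT M2 and 5 without WT F3. There were 5 without vehicle F1, 7 without vehicle M4 and 6 without vehicle M5. These fits called 16.8% to 25.3% of all genes. Leaving out a TMB library gave 15 calls without F1, 12 without F3, 11 without F4, 10 without M5 and 9 without M6 (30% to 33.5% of all genes). Without vehicle F2 there were again 12 calls in vehicle against WT and 0 in TMB against vehicle.

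**Figure D2:**
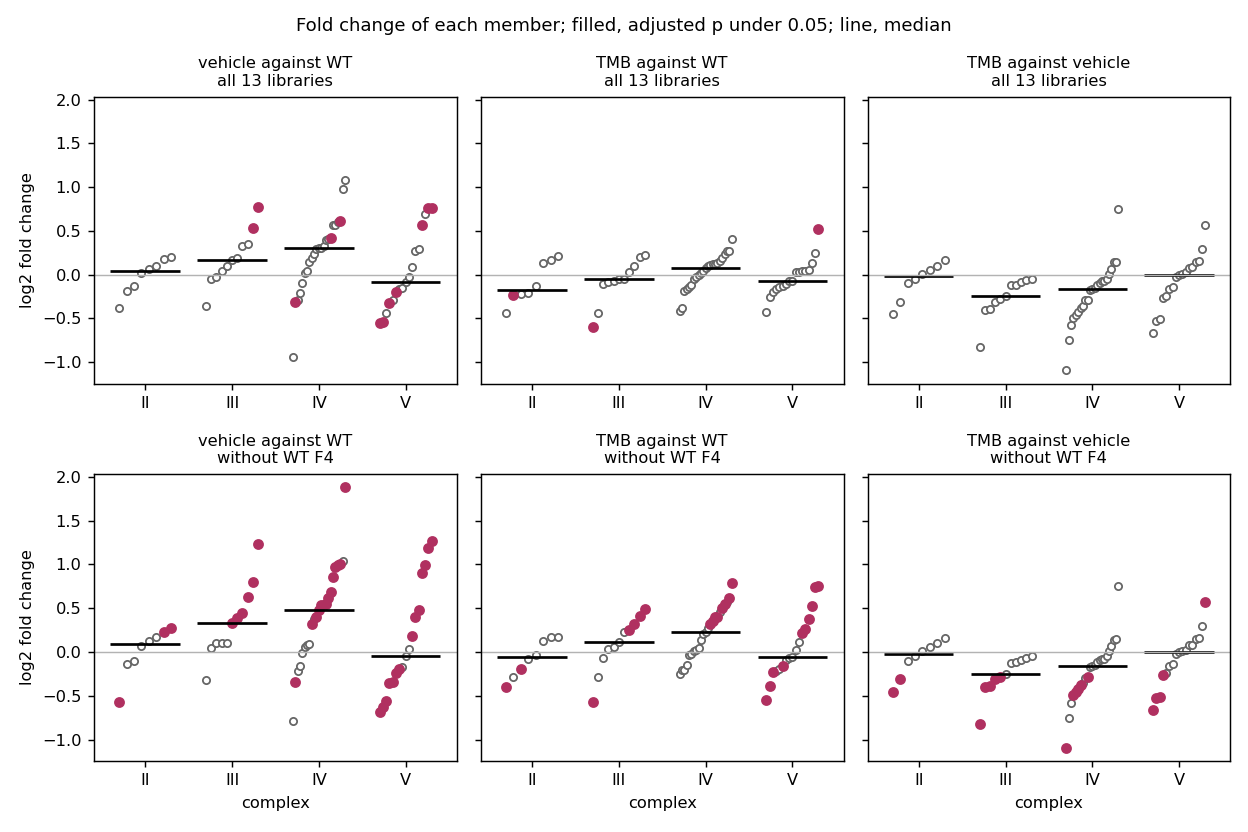
Log2 fold change of each member (points, y axis) by complex (x axis) for 3 comparisons, with all 13 libraries (top) and without WT F4 (bottom); filled points had an adjusted p under 0.05 and lines mark medians. Complex III and IV medians lie above 0 in vehicle against WT (0.17 and 0.31) and below 0 in TMB against vehicle (-0.25 and -0.16).

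Members' fold changes also ran with the GC content of their transcripts, which ranged over 37.0% to 63.3% with a median of 50.2% (49.2% over all genes tested). Across the 59 members, which share the same libraries, Pearson's r between GC content and log2 fold change was 0.59 in vehicle against WT, 0.55 in TMB against WT and -0.38 in TMB against vehicle, and over all 16710 genes with a value it was 0.46, 0.20 and -0.54. The 7 members that rose in vehicle had a median GC content of 59.3% and the 5 that fell 46.8%. Among the 20 GC-poorest members (37.0% to 47.7%) the median vehicle-against-WT log2 fold change was -0.04, beside -0.29 for other genes in that range. The next 19 had 0.10 beside 0.08, and the 20 GC-richest members (53.1% to 63.3%) had 0.33 beside 0.38. Among libraries, the GC-richest 20% of genes lay 0.19 below to 0.13 above their mean log2 level in TMB, 0.12 to 0.33 above it in vehicle, 0.33 to 0.49 below it in WT M1, M2 and F3, and 0.28 above it in WT F4. Whether GC content had a part in the members' values was examined by removing the GC trend in each library before the test.

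With the GC trend removed, 16 members were called in vehicle against WT (19.4% of 16710 genes), 5 of them among the 12 and in the same direction: Atp5g3, Cox6b1 and Cox19 rose and Atp5h and Atpif1 fell. Of the other 11, Uqcrc2, Uqcc1, Atp5o and Sdhaf2 were higher in vehicle, and Atp5b, Atp5a1, Atp5c1, Cox4i1, Atp5j, Atp5mpl and Uqcr10 were lower. The remaining 7 of the 12, namely Cyc1, Uqcr11, Cox6c, Atp5d, Atp5g2, Atp5f1 and Atp5l, were not called, and Cyc1 and Atp5f1 changed sign, to -0.06 and 0.25. TMB against WT had 5 calls (15.8% of genes), all lower in TMB, namely Sdha, Uqcrb, Uqcc3, Cox7a2l and Atp5a1, and TMB against vehicle had 0 (0.012% of genes). At an unadjusted p under 0.05 that comparison had 23 members, 20 of them lower in TMB, and 2441 of all genes, 1183 of them lower.

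**Figure D3:**
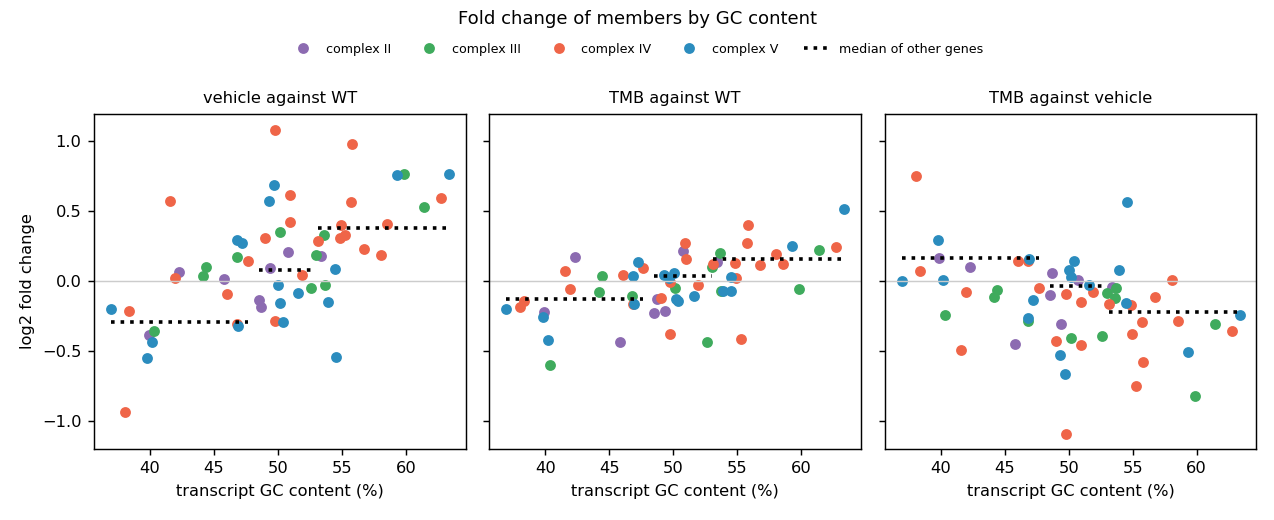
Log2 fold change (y axis) of each member against the GC content of its transcripts in percent (x axis), coloured by complex, for 3 comparisons; dotted lines give the median of other genes in each of 3 GC ranges of the members. In vehicle against WT the dotted lines run from -0.29 to 0.38, with the 20 GC-poorest members above their line (-0.04 beside -0.29).

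Summed by complex, the members took up 0.528% ± 0.00728 of nuclear reads in TMB, 0.575% ± 0.0243 in vehicle and 0.520% ± 0.0595 in WT retinas (SD, n = 5, 4 and 4), and 0.491% in WT without WT F4. Complex V took the most reads at 0.279% ± 0.00408 in TMB, 0.298% ± 0.00638 in vehicle and 0.278% ± 0.0246 in WT. Complex II, the smallest, took 0.0569% ± 0.00138 in TMB, 0.0601% ± 0.00386 in vehicle and 0.0598% ± 0.00276 in WT. Complex III took 0.0758% ± 0.00155 in TMB, 0.0877% ± 0.00538 in vehicle and 0.0725% ± 0.0136 in WT, and its 5 TMB libraries (0.0734% to 0.0774%) lay below all 4 vehicle libraries (0.0812% to 0.0930%). Complex IV shares were 0.116% ± 0.00236 in TMB, 0.129% ± 0.0105 in vehicle and 0.109% ± 0.0190 in WT. These shares describe reads and not protein. Levels per kilobase use the joined length of all annotated exons of a gene, which can exceed the length of its main transcript. Per kilobase of exon, the median subunit level was 28.3 CPM in complex II, 44.8 in complex III, 46.9 in complex IV and 44.5 in complex V. Assembly factors were lower, at medians of 4.93, 31.5 and 6.11 CPM per kilobase in complexes II, III and IV. Atp5b (241 CPM per kilobase), Cox8a (217), Atp5a1 (191) and Cox6a1 (146) stood highest and Cox16 (0.359) lowest.

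Complex II had 0 of 8 calls by edgeR in vehicle against WT, with log2 fold changes of -0.39 to 0.21 and 2 members at an unadjusted p under 0.05. Sdha, the flavoprotein that oxidizes succinate, had 316, 324, 304, 321 and 321 CPM in TMB retinas, 359, 309.7, 325 and 362 CPM in vehicle retinas and 362, 360.4, 369.9 and 395 CPM in WT retinas. All 5 TMB values lay below all 4 WT values, and Sdha fell in TMB against WT (log2 fold change of -0.23 ± 0.07, adjusted p = 0.0418). Its vehicle values overlapped WT (log2 fold change of -0.13 ± 0.07, adjusted p = 0.148). The call was lost when any TMB library, vehicle F1 or M5, or WT M1, M2 or F3 was left out, and without WT F4 it stood at a log2 fold change of -0.20 ± 0.06, adjusted p = 0.0176. Sdhb, the iron-sulfur subunit, had 59.0, 52.0, 53.7, 51.8 and 53.2 CPM in TMB retinas, 58.4, 54.0, 51.4 and 58.9 CPM in vehicle retinas and 47.7, 45.4, 50.1 and 53.2 CPM in WT retinas. WT M1, M2 and F3 lay below every Rpe65-/- value of Sdhb, WT F4 did not, and neither the vehicle difference (log2 fold change of 0.18 ± 0.08, adjusted p = 0.0876) nor the TMB difference from WT (log2 fold change of 0.14 ± 0.08, adjusted p = 0.276) passed the test.

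Sdhc and Sdhd anchor the enzyme in the membrane and bind ubiquinone. Sdhc had a vehicle-against-WT log2 fold change of -0.18 ± 0.08, adjusted p = 0.0953. Sdhd had 38.9, 35.9, 34.9, 35.0 and 34.9 CPM in TMB retinas, 45.5, 40.1, 43.9 and 48.5 CPM in vehicle retinas and 33.7, 38.9, 37.9 and 56.0 CPM in WT retinas. Every TMB value of Sdhd lay below every vehicle value, with a TMB-against-vehicle log2 fold change of -0.31 ± 0.12, adjusted p = 0.254 in the fit of all libraries and a log2 fold change of -0.31 ± 0.07, adjusted p = 0.0149 without WT F4. Among assembly factors, Sdhaf4, which binds free Sdha, had 7.73, 10.3, 7.71, 9.43 and 7.87 CPM in TMB retinas, 10.8, 11.9, 11.9 and 12.5 CPM in vehicle retinas and 10.99, 9.30, 11.1 and 15.2 CPM in WT retinas. TMB values again lay below vehicle values without overlap (log2 fold change of -0.45 ± 0.14, adjusted p = 0.253), and against WT they had a log2 fold change of -0.44 ± 0.14, adjusted p = 0.0706. Sdhaf3, which helps to mature Sdhb, had a vehicle-against-WT log2 fold change of -0.39 ± 0.19, adjusted p = 0.115, and its WT F4 value of 12.6 CPM lay far under 23.8 to 24.8 CPM in the other WT retinas. Against vehicle, Sdha in TMB had a log2 fold change of -0.10 ± 0.07, adjusted p = 0.4. Sdhaf2, which attaches the flavin to Sdha, had a log2 fold change of 0.17 ± 0.09, adjusted p = 0.24 in TMB against WT and a log2 fold change of 0.10 ± 0.09, adjusted p = 0.502 in TMB against vehicle. Sdhaf1, which guides iron-sulfur clusters to Sdhb, had 33 to 71 reads, and 69.0% of its 50-base words occur in other genes.

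Complex III had 2 risers in vehicle against WT. Cyc1, cytochrome c1, which hands electrons to cytochrome c, had 85.2, 101, 103, 98.3 and 93.6 CPM in TMB retinas, 120.1, 110.4, 117 and 129.5 CPM in vehicle retinas and 74.0, 71.0, 61.4 and 124 CPM in WT retinas. The vehicle values and WT F4 stood together, the TMB values lay below them, and the other 3 WT values were lowest. Cyc1 rose in vehicle against WT (log2 fold change of 0.53 ± 0.16, adjusted p = 0.0243), and in TMB against WT it had a log2 fold change of 0.22 ± 0.16, adjusted p = 0.386. Uqcr11, a small subunit of the complex, had 11.9, 18.3, 17.7, 14.5 and 17.5 CPM in TMB retinas, 30.9, 23.5, 27.1 and 31.6 CPM in vehicle retinas and 12.7, 13.1, 10.2 and 30.4 CPM in WT retinas. Uqcr11 also rose in vehicle (log2 fold change of 0.77 ± 0.27, adjusted p = 0.0377), and had a log2 fold change of 1.24 ± 0.16, adjusted p = 9.1e-06 without WT F4. Neither Cyc1 nor Uqcr11 was called when vehicle F1 or M5, or WT M1, M2 or F3, was left out. Uqcr11 was also not called without vehicle M4. With the GC trend removed neither rise was called, and Cyc1 turned sign. The TMB values of Uqcr11 lay below all vehicle values, with a TMB-against-vehicle log2 fold change of -0.82 ± 0.25, adjusted p = 0.253 and a log2 fold change of -0.82 ± 0.13, adjusted p = 0.00553 without WT F4. Against WT the sign of Uqcr11 in TMB turned on WT F4, at a log2 fold change of -0.05 ± 0.25, adjusted p = 0.9 with it and a log2 fold change of 0.41 ± 0.15, adjusted p = 0.0387 without it.

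Uqcrb, a subunit next to the ubiquinone site, moved the other way. It had 39.3, 28.3, 29.6, 24.0 and 35.8 CPM in TMB retinas, 39.9, 34.2, 36.9 and 37.8 CPM in vehicle retinas and 45.2, 40.0, 54.4 and 50.9 CPM in WT retinas. All WT values stood above all TMB and all vehicle values. Uqcrb fell in TMB against WT (log2 fold change of -0.60 ± 0.13, adjusted p = 0.0098), a call kept when any 1 library was left out, and had a log2 fold change of -0.36 ± 0.14, adjusted p = 0.0592 in vehicle against WT. It overlaps Gm10767, and 19.2% of its 50-base words occur in other genes. The core proteins Uqcrc1 and Uqcrc2, related to mitochondrial processing peptidases, were near level, with vehicle-against-WT changes given by a log2 fold change of 0.19 ± 0.11, adjusted p = 0.173 and a log2 fold change of 0.10 ± 0.06, adjusted p = 0.237. Uqcrc1 passed the test without WT F4 (log2 fold change of 0.34 ± 0.06, adjusted p = 0.000294).

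Other small subunits of complex III lay lower in TMB than in vehicle without passing the test. Uqcrq had 55.2, 58.2, 52.8, 48.3 and 56.6 CPM in TMB retinas, 75.5, 65.7, 65.3 and 80.3 CPM in vehicle retinas and 49.98, 51.7, 37.2 and 85.7 CPM in WT retinas, with a TMB-against-vehicle log2 fold change of -0.40 ± 0.17, adjusted p = 0.257. Uqcrh, the hinge protein between cytochrome c1 and cytochrome c, had a log2 fold change of -0.28 ± 0.13, adjusted p = 0.272. Both had no overlap between TMB and vehicle retinas and passed without WT F4. Uqcr10 differed little, at a log2 fold change of -0.05 ± 0.12, adjusted p = 0.841. Of the assembly factors, which are needed to make and insert cytochrome b, Uqcc3 had 31.1, 26.7, 27.5, 25.5 and 32.3 CPM in TMB retinas, 38.4, 33.2, 39.4 and 39.0 CPM in vehicle retinas and 34.7, 41.2, 29.2 and 49.9 CPM in WT retinas. Its TMB-against-WT log2 fold change of -0.44 ± 0.13, adjusted p = 0.053 missed the threshold and its TMB-against-vehicle value was a log2 fold change of -0.39 ± 0.13, adjusted p = 0.253. Uqcc2 had a log2 fold change of 0.33 ± 0.14, adjusted p = 0.0726 in vehicle against WT and a log2 fold change of 0.20 ± 0.13, adjusted p = 0.336 in TMB against WT.

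Complex IV had 3 calls among 23 members in vehicle against WT (2 higher, 1 lower), 0 in TMB against WT (2 at an unadjusted p under 0.05 by edgeR) and 0 in TMB against vehicle. Cox6b1, a subunit on the side where cytochrome c docks, had 51.9, 65.0, 57.9, 54.3 and 54.5 CPM in TMB retinas, 78.4, 71.0, 80.2 and 81.8 CPM in vehicle retinas and 40.9, 41.0, 34.8 and 86.8 CPM in WT retinas. The vehicle values and WT F4 lay above all TMB values, which lay above the other 3 WT values. Cox6b1 rose in vehicle against WT (log2 fold change of 0.61 ± 0.21, adjusted p = 0.0372). Its TMB-against-vehicle log2 fold change of -0.46 ± 0.20, adjusted p = 0.262 became a log2 fold change of -0.46 ± 0.08, adjusted p = 0.00561 without WT F4. Cox19, an assembly factor linked to copper delivery, had 31.4, 34.2, 36.0, 32.6 and 32.9 CPM in TMB retinas, 36.2, 35.7, 38.0 and 38.4 CPM in vehicle retinas and 25.8, 25.8, 24.5 and 34.7 CPM in WT retinas. Every vehicle value lay above every WT value, WT F4 included, and Cox19 rose (log2 fold change of 0.42 ± 0.11, adjusted p = 0.0109). It was called in each fit that left out 1 library. Cox6c, a small membrane subunit, had 161, 122, 149.7, 149.9 and 163 CPM in TMB retinas, 122, 139, 148 and 131 CPM in vehicle retinas and 188, 163, 164 and 153 CPM in WT retinas. Cox6c fell in vehicle against WT without overlap (log2 fold change of -0.31 ± 0.10, adjusted p = 0.0288).

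**Figure D4:**
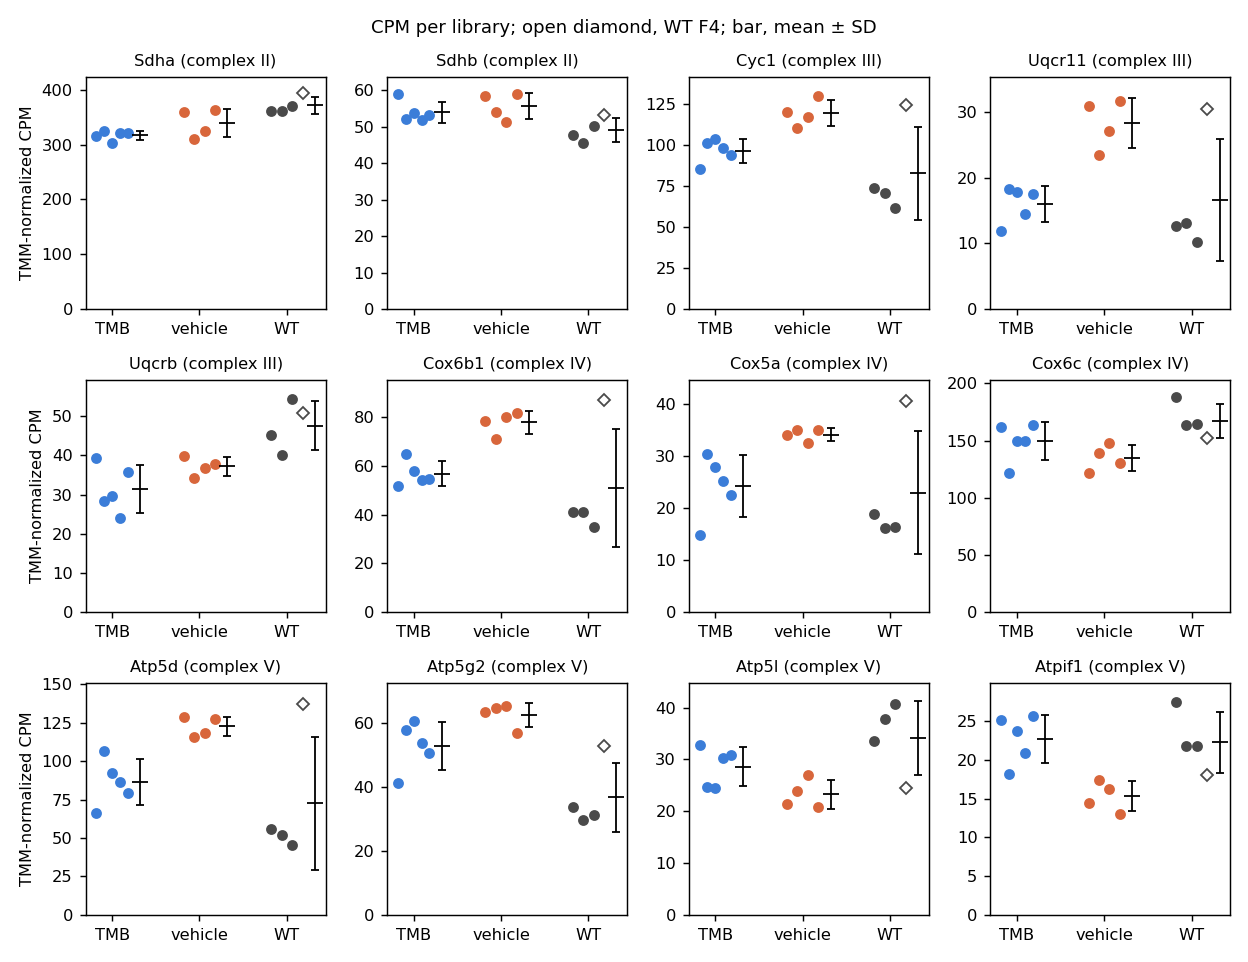
TMM-normalized CPM (y axis) of 12 members in each library by group, with the mean and SD beside each group; the open diamond is WT F4. In Cyc1, Uqcr11, Cox6b1, Cox5a and Atp5d the diamond stands with the vehicle points, above the other 3 WT points, which lie lowest in Cyc1, Cox6b1 and Atp5d and overlap TMB in Uqcr11 and Cox5a, while Uqcrb is highest in WT and Atpif1 lowest in vehicle.

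Several subunits of complex IV passed edgeR's test in vehicle against WT without WT F4 but not with all libraries. With all libraries limma-trend called Cox5a, Cox6a1 and Cox8a higher, and DESeq2 called Cox6a1. Cox5a, a subunit on the matrix side, had 14.8, 30.3, 27.9, 25.3 and 22.5 CPM in TMB retinas, 34.0, 35.0, 32.4 and 35.1 CPM in vehicle retinas and 18.9, 16.1, 16.3 and 40.6 CPM in WT retinas. With all libraries Cox5a had a log2 fold change of 0.57 ± 0.26, adjusted p = 0.0994 in vehicle against WT, and without WT F4 log2 fold change of 0.9996 ± 0.17, adjusted p = 0.000132. Cox5b, also on the matrix side, had a log2 fold change of 0.31 ± 0.14, adjusted p = 0.0944 in vehicle against WT, and in TMB against vehicle log2 fold change of -0.43 ± 0.13, adjusted p = 0.253, with all TMB values (49.4 to 59.8 CPM) below all vehicle values (60.3 to 82.3 CPM). Cox4i1, the main form of subunit 4, had a log2 fold change of 0.19 ± 0.10, adjusted p = 0.156. Cox6a1 had 74.5, 107, 110.1, 106 and 94.4 CPM in TMB retinas, 139, 112, 112 and 141 CPM in vehicle retinas and 71.6, 70.8, 49.9 and 140.4 CPM in WT retinas, with a log2 fold change of 0.60 ± 0.23, adjusted p = 0.058 in vehicle against WT.

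Among the assembly factors of complex IV, Cox11, which places copper in the enzyme, had 1.86, 3.96, 2.63, 3.14 and 2.46 CPM in TMB retinas, 6.43, 4.05, 5.05 and 8.45 CPM in vehicle retinas and 2.09, 1.44, 1.38 and 6.45 CPM in WT retinas. The vehicle values and WT F4 were the highest, and the vehicle-against-WT log2 fold change of 1.08 ± 0.41, adjusted p = 0.0541 became a log2 fold change of 1.89 ± 0.30, adjusted p = 5.8e-05 without WT F4. Against vehicle, Cox11 in TMB had a log2 fold change of -1.09 ± 0.39, adjusted p = 0.253, and in TMB against WT the sign again turned on WT F4, at a log2 fold change of -0.01 ± 0.41, adjusted p = 0.989 with it and a log2 fold change of 0.79 ± 0.30, adjusted p = 0.0441 without it. Cox11 overlaps Tom1l1 and shares 50.5% of its 50-base words with other genes, so its 20 to 137 reads are uncertain. Cox14, which acts with newly made Cox1, had a log2 fold change of 0.40 ± 0.15, adjusted p = 0.0514 in vehicle against WT and a log2 fold change of -0.38 ± 0.14, adjusted p = 0.253 in TMB against vehicle, and TMB and vehicle values did not overlap. Cox16, an assembly factor with 11 to 36 reads and 88.7% of its words shared with other genes, had a log2 fold change of -0.94 ± 0.35, adjusted p = 0.0511. The smallest adjusted p-values for TMB against WT belonged to Cox7a2l, a supercomplex factor (log2 fold change of -0.38 ± 0.14, adjusted p = 0.0959), Cox19 (log2 fold change of 0.27 ± 0.10, adjusted p = 0.106), Cox4i1 (log2 fold change of 0.20 ± 0.10, adjusted p = 0.22) and Cox6c (log2 fold change of -0.16 ± 0.09, adjusted p = 0.29).

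Tissue isoforms of complex IV kept low shares. Cox4i2, the form of subunit 4 known from lung, made up 18.2% ± 1.44 of subunit 4 per kilobase in TMB, 19.3% ± 2.93 in vehicle and 18.9% ± 2.85 in WT retinas. These shares rest on joined exon lengths of 788 bases for Cox4i2 and 1550 for Cox4i1. Without scaling by length, Cox4i2 averaged 17.8 CPM beside 158 CPM for Cox4i1 in TMB. Cox6b2, known from testis, made up 4.04% ± 1.23 of subunit 6b in TMB, 3.55% ± 0.666 in vehicle and 3.78% ± 0.481 in WT. The heart and muscle form Cox7a1 made up 2.35% ± 0.240 beside Cox7a2 in TMB, 3.59% ± 1.08 in vehicle and 2.99% ± 0.666 in WT, on 11 to 40 reads. Cox8b, another muscle form, made up 1.12% ± 0.387 beside Cox8a in TMB, 1.40% ± 0.629 in vehicle and 0.885% ± 0.807 in WT, on 2 to 27 reads. TMB, vehicle and WT ranges overlapped for each of these isoforms, least for Cox7a1 between TMB (2.09% to 2.64%) and vehicle (2.62% to 5.09%). The TMB-against-vehicle log2 fold change of -0.75 ± 0.30, adjusted p = 0.254 for Cox7a1 did not pass. Of the skeletal muscle markers 3 of 8 were in the table, at a sum of 3.76 to 5.40 CPM in TMB, 5.05 to 11.5 CPM in vehicle and 3.33 to 4.78 CPM in WT retinas, and their part in Cox7a1 and Cox8b was not tested. Cox7b had a log2 fold change of 0.02 ± 0.07, adjusted p = 0.824, Cox7a2 log2 fold change of 0.05 ± 0.10, adjusted p = 0.735 and Cox8a log2 fold change of 0.41 ± 0.17, adjusted p = 0.0773 in vehicle against WT.

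Complex V had the most calls and they split in direction, 3 up and 4 down in vehicle against WT. Membrane subunit c, whose ring turns as protons pass, is encoded by 3 nuclear genes that yield the same mature protein, and these are shown because all 3 were measured as separate genes. The last 237 coding bases, over which the 3 genes encode the same amino acids, with the stop codon, follow from the reference transcripts of GRCm38 (GENCODE M21), with capitals at bases that differ from Atp5g1.
Atp5g1: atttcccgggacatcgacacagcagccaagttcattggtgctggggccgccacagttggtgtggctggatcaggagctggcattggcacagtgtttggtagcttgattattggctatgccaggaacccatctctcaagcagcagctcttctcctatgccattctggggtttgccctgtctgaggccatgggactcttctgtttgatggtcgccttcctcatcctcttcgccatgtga
Atp5g2: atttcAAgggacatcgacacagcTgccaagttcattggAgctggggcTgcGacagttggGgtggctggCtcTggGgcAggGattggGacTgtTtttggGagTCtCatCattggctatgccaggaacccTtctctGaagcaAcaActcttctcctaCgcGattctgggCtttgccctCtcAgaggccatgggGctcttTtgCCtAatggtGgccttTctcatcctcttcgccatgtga
Atp5g3: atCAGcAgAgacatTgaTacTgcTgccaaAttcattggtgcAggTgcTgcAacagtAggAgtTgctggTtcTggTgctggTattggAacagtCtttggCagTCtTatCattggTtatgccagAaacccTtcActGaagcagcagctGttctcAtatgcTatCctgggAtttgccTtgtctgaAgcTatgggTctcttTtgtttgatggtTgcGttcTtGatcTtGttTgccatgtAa
Over these 78 codons and the stop codon, Atp5g2 differs from Atp5g1 at 36 bases, 33 of them the last base of a codon, and Atp5g3 at 51, 43 of them the last base of a codon. GC content at that codon position is 62.0% in Atp5g1, 60.8% in Atp5g2 and 39.2% in Atp5g3. The genes lie at chr11:96068852-96075670 (Atp5g1), chr15:102662864-102672352 (Atp5g2) and chr2:73908447-73911326 (Atp5g3), all on the minus strand.

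Atp5g2 had the smallest adjusted p of all members in vehicle against WT. It had 41.2, 58.0, 60.6, 53.9 and 50.7 CPM in TMB retinas, 63.5, 64.9, 65.4 and 57.1 CPM in vehicle retinas and 33.8, 29.6, 31.3 and 53.0 CPM in WT retinas. All vehicle values lay above all WT values, and Atp5g2 rose both in vehicle (log2 fold change of 0.76 ± 0.16, adjusted p = 0.00476) and in TMB against WT (log2 fold change of 0.52 ± 0.15, adjusted p = 0.0467). With the GC trend removed Atp5g2 had a log2 fold change of 0.08 ± 0.10, adjusted p = 0.624 in vehicle and a log2 fold change of 0.23 ± 0.10, adjusted p = 0.128 in TMB against WT. The call against WT in TMB was also lost when TMB F3, F4, M5 or M6, any vehicle library, or WT M1, M2 or F3 was left out. Atp5g3 had 82.2, 117, 112, 97.1 and 83.5 CPM in TMB retinas, 144, 134, 137 and 153 CPM in vehicle retinas and 86.3, 70.5, 70.9 and 154 CPM in WT retinas. It rose in vehicle (log2 fold change of 0.57 ± 0.20, adjusted p = 0.0421), and all TMB values lay below all vehicle values (log2 fold change of -0.53 ± 0.19, adjusted p = 0.253). Atp5g1 had a log2 fold change of 0.30 ± 0.12, adjusted p = 0.0741 in vehicle against WT and a log2 fold change of -0.26 ± 0.12, adjusted p = 0.266 in TMB against vehicle. Shares of subunit c per kilobase rest on joined exon lengths of 4912 bases for Atp5g1, 1675 for Atp5g2 and 2181 for Atp5g3. Of the reads for subunit c per kilobase, Atp5g2 took 34.7% ± 1.92 in TMB, 31.4% ± 2.54 in vehicle and 28.0% ± 1.53 in WT retinas. Atp5g3 took 49.5% ± 2.18 in TMB, 54.5% ± 2.10 in vehicle and 54.2% ± 3.43 in WT, and the TMB range (46.5% to 52.3%) lay below the vehicle range (52.7% to 57.5%).

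None of the large subunits of the catalytic head of complex V passed the test in vehicle against WT with all libraries. The alpha and beta subunits Atp5a1 and Atp5b had vehicle-against-WT changes given by a log2 fold change of 0.09 ± 0.09, adjusted p = 0.438 and a log2 fold change of -0.08 ± 0.08, adjusted p = 0.393, and the shaft subunit Atp5c1 had a log2 fold change of -0.16 ± 0.07, adjusted p = 0.0881. Atp5d, the delta subunit, had 66.4, 107, 92.2, 86.5 and 79.3 CPM in TMB retinas, 129, 116, 119 and 127 CPM in vehicle retinas and 56.0, 51.7, 45.4 and 137 CPM in WT retinas. It rose in vehicle against WT (log2 fold change of 0.76 ± 0.27, adjusted p = 0.04), with a log2 fold change of 1.27 ± 0.12, adjusted p = 1.17e-06 without WT F4, and its TMB and vehicle values did not overlap (log2 fold change of -0.51 ± 0.25, adjusted p = 0.283). The rise of Atp5d was not called when TMB F4, M5 or M6, any vehicle library, or WT M1, M2 or F3 was left out. Nor was it called with the vehicle and WT groups alone or with the GC trend removed. Atp5e, the epsilon subunit, had 24.0, 41.3, 36.2, 31.2 and 26.7 CPM in TMB retinas, 48.9, 47.1, 51.6 and 54.6 CPM in vehicle retinas and 22.8, 25.0, 18.6 and 58.9 CPM in WT retinas. Vehicle values and WT F4 lay above all TMB values, and TMB values overlapped the other 3 WT values. Its vehicle-against-WT log2 fold change of 0.69 ± 0.28, adjusted p = 0.0651 missed the threshold in edgeR with all libraries and passed it without WT F4 (log2 fold change of 1.19 ± 0.16, adjusted p = 1.22e-05), while DESeq2 and limma-trend called it with all libraries. Atp5e had a log2 fold change of -0.66 ± 0.26, adjusted p = 0.254 in TMB against vehicle.

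Atp5h, Atp5l and Atp5f1, subunits of the stalk and membrane part, fell in vehicle against WT. Atp5h, subunit d of the side stalk, had 149, 108, 121, 121 and 140.2 CPM in TMB retinas, 113, 115, 114 and 118 CPM in vehicle retinas and 141, 149, 149 and 136 CPM in WT retinas. All vehicle values lay below all WT values and Atp5h fell (log2 fold change of -0.32 ± 0.09, adjusted p = 0.017). Atp5l, subunit g, which helps dimers form, had 32.7, 24.7, 24.4, 30.2 and 30.8 CPM in TMB retinas, 21.5, 23.9, 27.0 and 20.8 CPM in vehicle retinas and 33.5, 37.8, 40.7 and 24.5 CPM in WT retinas. Atp5l fell in vehicle against WT (log2 fold change of -0.55 ± 0.15, adjusted p = 0.0154), with WT F4 again among the vehicle values. Atp5f1, subunit b, fell by a small amount (log2 fold change of -0.20 ± 0.07, adjusted p = 0.0424), and in TMB against WT it had a log2 fold change of -0.20 ± 0.07, adjusted p = 0.0791. Its fall in vehicle was not called when TMB F4, M5 or M6, any vehicle library, or WT M1, M2 or F3 was left out. With the GC trend removed Atp5f1 turned sign in vehicle against WT. Atp5s, coupling factor B, had a log2 fold change of -0.42 ± 0.15, adjusted p = 0.0972 and Atp5c1 log2 fold change of -0.13 ± 0.07, adjusted p = 0.233 in TMB against WT.

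Atpif1 encodes the inhibitor that stops ATP synthase from running backwards and splitting ATP. It had 25.1, 18.3, 23.7, 20.9 and 25.7 CPM in TMB retinas, 14.5, 17.5, 16.3 and 13.1 CPM in vehicle retinas and 27.5, 21.8, 21.9 and 18.0 CPM in WT retinas. The vehicle values were the lowest, below every TMB and every WT value. Atpif1 fell in vehicle against WT (log2 fold change of -0.54 ± 0.15, adjusted p = 0.0145), and in TMB against WT it differed by a log2 fold change of 0.03 ± 0.14, adjusted p = 0.898. In TMB against vehicle it was the only member higher in all TMB than in all vehicle retinas, at a log2 fold change of 0.57 ± 0.14, adjusted p = 0.253 with all libraries, log2 fold change of 0.57 ± 0.12, adjusted p = 0.0104 without WT F4 and a log2 fold change of 0.57, adjusted p = 0.0329 by DESeq2. Among its 50-base words 25.1% occur in other genes. The GC content of Atpif1, 54.5%, was the highest of the 5 members that fell, and Atpif1 also fell with the GC trend removed (log2 fold change of -0.86 ± 0.18, adjusted p = 0.00371).

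Promoters of 4 called members are shown as context for the gene starts. Each window of 300 bases spans a RefSeq gene start (GRCm38.p6), most of it upstream, and capitals mark matches to 3 short motifs searched on both strands: GCATGCGC (the core bound by NRF1), CCGGAAG (the ETS core bound by GABPA) and AAGATGG (the YY1 core). NRF1 and GABPA are known activators of respiratory genes.
Uqcr11 (chr10:80406772-80407071, minus strand): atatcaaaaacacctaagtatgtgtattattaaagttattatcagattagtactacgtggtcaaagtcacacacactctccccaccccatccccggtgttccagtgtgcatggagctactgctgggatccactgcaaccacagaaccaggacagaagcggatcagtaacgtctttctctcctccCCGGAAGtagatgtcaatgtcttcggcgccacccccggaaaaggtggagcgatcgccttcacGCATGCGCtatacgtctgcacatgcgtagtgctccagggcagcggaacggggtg
Atp5g2 (chr15:102670998-102671297, minus strand; motif read in both directions): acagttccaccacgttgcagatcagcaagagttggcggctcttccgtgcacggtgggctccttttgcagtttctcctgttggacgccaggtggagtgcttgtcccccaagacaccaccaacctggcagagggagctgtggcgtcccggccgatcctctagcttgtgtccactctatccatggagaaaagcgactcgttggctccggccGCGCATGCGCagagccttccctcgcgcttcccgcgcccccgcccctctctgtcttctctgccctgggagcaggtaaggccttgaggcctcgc
Atp5h (chr11:115419870-115420169, minus strand): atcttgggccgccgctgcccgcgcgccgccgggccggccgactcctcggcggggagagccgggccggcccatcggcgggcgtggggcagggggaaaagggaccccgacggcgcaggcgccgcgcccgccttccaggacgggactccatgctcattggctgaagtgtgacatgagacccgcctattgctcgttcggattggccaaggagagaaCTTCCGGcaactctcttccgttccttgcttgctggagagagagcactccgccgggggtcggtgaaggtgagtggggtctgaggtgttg
Atp5l (chr9:44920693-44920992, minus strand): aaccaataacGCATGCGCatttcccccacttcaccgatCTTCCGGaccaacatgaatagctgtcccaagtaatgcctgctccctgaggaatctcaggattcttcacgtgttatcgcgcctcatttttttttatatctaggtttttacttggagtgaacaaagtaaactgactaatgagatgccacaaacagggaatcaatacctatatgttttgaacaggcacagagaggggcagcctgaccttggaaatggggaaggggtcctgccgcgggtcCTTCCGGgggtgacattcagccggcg
Windows were found for 45 members (49 windows). GCATGCGC was in 6 member windows (12.2%) and 2.71% of all 32851 windows, CCGGAAG in 19 (38.8%) and 8.86%, and AAGATGG in 5 (10.2%) and 6.34%. By complex CCGGAAG was in 5 of 7 windows of complex II, 2 of 7 of complex III, 8 of 19 of complex IV and 4 of 16 of complex V. A match is a stretch of letters and does not show binding. Members that rose (Uqcr11, Atp5g2) and members that fell (Atp5h, Atp5l) both carried such matches. Not all called members did. Of the others called in vehicle against WT, Cox6b1 carried a match, and the windows of Cox19, Atp5d, Atp5g3 and Atpif1 held none. No window was found for Cyc1, Cox6c or Atp5f1.

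The subunits of complexes III to V made from mitochondrial DNA were counted in a table of 16 genes and tested within it. In that table, whose values are relative to other mitochondrial genes, 46.7% of 15 genes changed in vehicle against WT, 33.3% in TMB against WT and 0.0% in TMB against vehicle. Of the 5 respiratory subunits tested only mt-Cytb, cytochrome b of complex III, changed, rising in vehicle against WT (log2 fold change of 0.28 ± 0.09, adjusted p = 0.0386). In TMB against WT edgeR called 0 of the 5, and 1 of them, mt-Co3, had an unadjusted p under 0.05. For TMB against vehicle both counts were 0. mt-Atp8 had 0 to 2 reads and was not tested.

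The mitochondrially encoded subunits were also set against nuclear reads. Mitochondrial genes took 3.37% to 4.08% of reads in TMB, 2.69% to 3.70% in vehicle and 4.28% to 6.02% in WT libraries other than WT F4, which had 2.84%. When both tables were fitted as 1, mt-Co1, mt-Co2 and mt-Atp6 were lower in vehicle against WT (log2 fold change of -0.70 ± 0.19, adjusted p = 0.0164; log2 fold change of -0.72 ± 0.18, adjusted p = 0.00949; log2 fold change of -0.88 ± 0.17, adjusted p = 0.00318), and mt-Co3 was lower in TMB against WT (log2 fold change of -1.24 ± 0.32, adjusted p = 0.0241). mt-Atp6, subunit a of ATP synthase, had 46.9, 39.4, 42.8, 41.3 and 50.2 reads for every 1000000 nuclear reads in TMB, 29.4, 36.4, 32.1 and 31.9 in vehicle and 75.1, 55.9, 71.0 and 36.4 in WT retinas. Its TMB values lay above all vehicle values and below the 3 WT values other than WT F4. mt-Co1, the catalytic core of complex IV, averaged 12953 ± 969.8 in TMB, 10311 ± 2048 in vehicle and 16709 ± 5350 in WT (SD). mt-Cytb averaged 7346 ± 427 in TMB, 6399 ± 1198 in vehicle and 8749 ± 2460.4 in WT, and the ranges of all 3 groups overlapped. mt-Co3 was uneven, with 129 in vehicle M5 beside 36.8 to 49.2 in the other vehicle retinas. In every library mt-Co2, mt-Co3 and mt-Atp6 had far fewer reads than mt-Co1 and mt-Cytb. Their TMB means were 65.1, 49.6 and 44.1. Shared 50-base words were counted for nuclear members alone, and whether reads of these 3 genes were lost to similar sequence elsewhere was not tested.

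**Figure D5:**
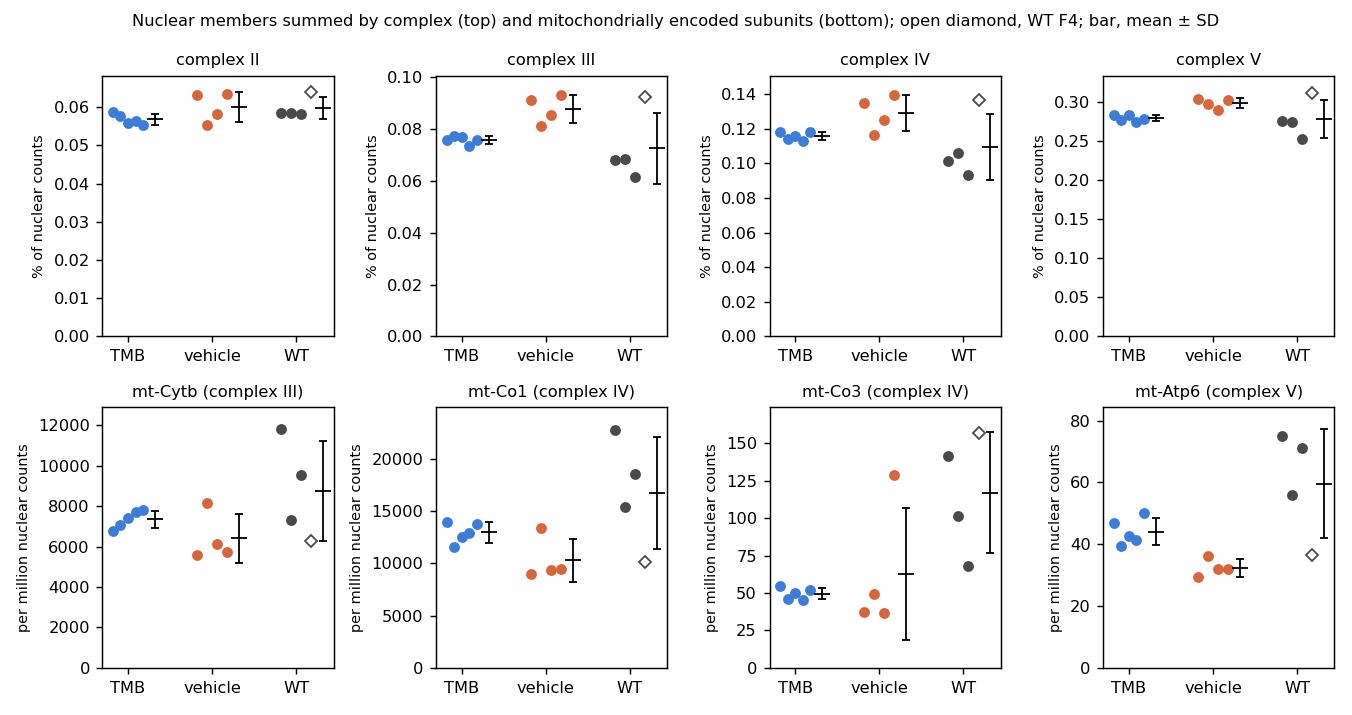
Share of nuclear reads taken by nuclear members of each complex in percent (top) and reads of 4 mitochondrially encoded subunits scaled to 1000000 nuclear reads (bottom) in each library, with mean and SD; the open diamond is WT F4. Complex III shares lie at 0.0734% to 0.0774% in TMB below 0.0812% to 0.0930% in vehicle, while mt-Atp6 lies above all vehicle points in TMB.

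Nuclear complex I genes, the nearest set, had 7 of 41 calls in vehicle against WT (17.1%, 4 higher and 3 lower, median 0.09), against 33.9% of all genes. In TMB against WT 1 was lower (median -0.08), against 5.02% of all genes called lower. In TMB against vehicle edgeR called 0 (median -0.10), against 0.0% of all genes. There 28 of 41 had a lower mean in TMB, beside 8376 of all 16782 genes. An unadjusted p under 0.05 was found for 16, 13 of them lower, beside 3064 of all genes, 1413 of them lower. TMB and vehicle libraries did not overlap for 1 complex I gene higher and 12 lower in TMB (6.2% and 8.05% of all genes). Of 14 tested genes for cytochrome c and its partners, 3 rose and 3 fell in vehicle against WT (15.7% and 18.3% of all genes). Ckmt1, the mitochondrial creatine kinase, rose (log2 fold change of 0.43 ± 0.12, adjusted p = 0.0145), and the outer membrane channel Vdac3 (log2 fold change of -0.34 ± 0.10, adjusted p = 0.0174) and cytochrome c itself, Cycs (log2 fold change of -0.45 ± 0.13, adjusted p = 0.0186), fell. Cycs averaged 50.6 ± 9.71 CPM in TMB, 49.9 ± 4.10 CPM in vehicle and 68.2 ± 7.74 CPM in WT retinas, and it also fell in TMB against WT (log2 fold change of -0.43 ± 0.12, adjusted p = 0.0385) with the ADP/ATP carrier Slc25a5 (log2 fold change of -0.24 ± 0.07, adjusted p = 0.0421). Ndufa4, a subunit now placed in complex IV, had a log2 fold change of -0.26 ± 0.08, adjusted p = 0.0558. For TMB against vehicle the smallest adjusted p-values of this list were those of Higd2a (log2 fold change of -0.60 ± 0.25, adjusted p = 0.254), Higd1a (log2 fold change of -0.20 ± 0.09, adjusted p = 0.262) and Slc25a4 (log2 fold change of -0.17 ± 0.08, adjusted p = 0.288).

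Of 20 tested assembly factors of complexes III to V with other names, 1 rose and 7 fell in vehicle against WT (15.7% and 18.3% of all genes), with a list median of 0.10, and 3 fell in TMB against WT (5.02% of all genes), with a list median of -0.05. Lyrm7, which readies the Rieske protein for complex III, averaged 3.86 ± 0.680 CPM in TMB, 4.31 ± 0.337 CPM in vehicle and 13.6 ± 3.06 CPM in WT retinas. It fell in both (log2 fold change of -1.81 ± 0.17, adjusted p = 5.7e-06 in TMB; log2 fold change of -1.66 ± 0.18, adjusted p = 2.73e-05 in vehicle). Lrpprc, which keeps mitochondrial mRNAs stable, also fell in both (log2 fold change of -0.51 ± 0.08, adjusted p = 0.00107 in TMB; log2 fold change of -0.68 ± 0.09, adjusted p = 0.000133 in vehicle). Tmem70, an ATP synthase assembly factor, fell in vehicle (log2 fold change of -0.42 ± 0.10, adjusted p = 0.00976) and Coa7, a complex IV assembly factor, in TMB against WT (log2 fold change of -0.34 ± 0.09, adjusted p = 0.0298). Pet100 (log2 fold change of -0.60 ± 0.21, adjusted p = 0.253), Tmem242 (log2 fold change of -0.24 ± 0.09, adjusted p = 0.253) and Coa3 (log2 fold change of -0.35 ± 0.16, adjusted p = 0.264) came first in this list for TMB against vehicle and did not pass.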

How the data were processed

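RNA of 13 mouse retinas was prepared with poly(A) selection and sequenced. Per the methods of the study, the authors checked reads with FastQC and RSeQC, trimmed them with Trimmomatic, aligned them to GRCm38 with STAR and counted reads per gene with HTSeq. Whether strand was used in counting is not stated in the sources used here. The deposited tables hold raw counts for 29700 nuclear and 16 mitochondrial genes. They list 4 WT columns a second time with identical values, which were not used. The authors' DESeq2 fold changes and p-values, a shorter table of selected genes and the sample sheets were not used either.

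Groups came from the labels. The design text of the series describes 3 WT mice and the labels 4; all 4 were used. The deposited sample sheets omit WT M1 and give vehicle F1 the genotype C57BL/6J within the Rpe65-/- vehicle group; it had 6 Rpe65 reads and was kept as labelled. Members and lists were chosen with earlier results of these data known. Nuclear counts were tested with edgeR 4.0.16 in R 4.3.3 (TMM, filterByExpr, 1 fit of 13 libraries, quasi-likelihood F test, no covariate), and mitochondrial counts likewise in their own table. The SE is the size of the log2 fold change divided by the square root of F. Each library is 1 retina of 1 mouse per the design text. The p-values therefore set a group difference against the spread between single retinas, estimated over all libraries of a fit. Total counts per library were 14155121 to 17186113. The fits were repeated with limma-trend (limma 3.58.1; prior count 2) and DESeq2 1.42.0, with RLE scaling in place of TMM, with no filter or a mean count of at least 100, the 2 compared groups alone, labelled sex as covariate, a replicate block, removal of the GC trend (16710 genes with a value), each library left out, and WT F4 and vehicle F2 left out together.

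Genes named with values were, per complex and comparison, the 4 members with the smallest adjusted p, core subunits, isoforms, members with the lowest counts, and the first 3 genes of each other list (1 is not reported here); further members are named where a call or a sentence turns on them. Exon length, GC content and 50-base words shared with other genes came from GENCODE M21, whose coordinates were those of 97.2% of the deposited genes. The test script was checked on simulated counts.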

Additional observations from a re-analysis of the deposited data

Results flagged for a closer look

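In 207 sets of 4 or 5 values (each member, complex share or mitochondrial subunit in each group), Dixon's test at the 95% level marked 22 single libraries, where chance would mark about 1 in 20; 12 of the 22 were WT F4. Of these, WT F4 was high against the other 3 WT retinas for Uqcc2 (28.8 CPM against 20.7 to 21.97), Uqcr11 (30.4 against 10.2 to 13.1), Cox10 (24.1 against 13.9 to 14.6), Cox11 (6.45 against 1.38 to 2.09), Cox14 (41.3 against 24.4 to 27.2), Cox19 (34.7 against 24.5 to 25.8), Cox5a (40.6 against 16.1 to 18.9), Cox6b1 (86.8 against 34.8 to 41.01), Atp5d (136.9 against 45.4 to 56.0) and Atp5e (58.9 against 18.6 to 25.0). It was low for Sdhaf3 (12.6 CPM against 23.8 to 24.8), and its complex II share of nuclear reads was 0.0640% against 0.0582% to 0.0586%.

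The other marks were spread over libraries. In TMB retinas Sdhaf1 had 2.48 CPM in F3 (3.35 to 3.67 in the others), Sdhb 59.0 CPM in F1 (51.8 to 53.7) and Sdhd 38.9 CPM in F1 (34.9 to 35.9). In vehicle retinas Uqcc3 had 33.2 CPM in F2 (38.4 to 39.4), Cox17 9.12 CPM in M4 (6.38 to 6.54), Atp5a1 588 CPM in M4 (650.2 to 653) and Atp5j2 70.4 CPM in M5 (73.8 to 74.3). Reads for every 1000000 nuclear reads were 13368 for mt-Co1 in vehicle F2 (9016 to 9464 in the others) and 129 for mt-Co3 in vehicle M5 (36.8 to 49.2). In WT, Atp5mpl had 85.8 CPM in M1 (72.9 to 73.8). What sets these libraries apart was not tested.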

How the results depend on the processing

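Counts of changed members moved with the setting. For vehicle against WT (12, with 33.9% of all genes called), DESeq2 gave 21 (38.6% of all genes), limma-trend 18 (35.3%), the 2 groups alone 5 (17.7%), leaving out WT F4 and vehicle F2 35 (55.9%), and leaving out 1 library 4 to 36 (16.8% to 55.6%). For TMB against WT (3), with 9.53% of all genes, the counts were 6 by DESeq2 (13.6%), 1 with the 2 groups alone (6.47%), 1 with labelled sex (8.07%), 5 with the GC trend removed (15.8%), 26 without WT F4 and vehicle F2 (39.1%), and 1 to 25 without 1 library (5.25% to 38.0%). For TMB against vehicle (0) they were 1 by DESeq2 (0.381%), 19 with the 2 groups alone (14.7%), 19 without both libraries (20.2%), and 0 to 18 without 1 library (0.0% to 16.0%).

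Replicate numbers were not used to pair the samples. Of 9 same-numbered pairs 3 had a correlation of deviations over 0.1 (range -0.17 to 0.25), and pairs with different numbers ran from -0.32 to 0.29. Shared litters or batches cannot be told from these correlations. A fit with a replicate block called 2 members in vehicle against WT (13.3% of all genes), 1 in TMB against WT (3.38%), 0 in TMB against vehicle, and 0 mitochondrially encoded subunits in vehicle against WT.

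The complex II median was -0.016 in vehicle against WT without both libraries. In TMB against WT (-0.17) it was -0.094 with the GC trend removed, -0.061 without both libraries and -0.19 to -0.061 without 1 library, and in TMB against vehicle -0.10 with the GC trend removed. The complex IV median in vehicle against WT (0.31) was 0.074 with the GC trend removed and 0.55 without both libraries. Fitted as 1 table with nuclear genes, 3 mitochondrially encoded subunits changed in vehicle against WT and 1 in TMB against WT; without 1 library there were 0 to 2 and 0 to 1.

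Among genes called with or without removal of the GC trend, signs turned in vehicle against WT for Atp5a1 (-0.20), Atp5f1 (0.25), Cox4i1 (-0.28), Cyc1 (-0.062), Hccs (0.0098), Polrmt (-0.10) and Vdac3 (0.085), and with 1 table for mt-Co1 (-0.70), mt-Co2 (-0.72) and mt-Cytb (-0.45). In TMB against WT, Cox11 (0.79) and Uqcr11 (0.41) turned without WT F4, with ranges of -0.25 to 0.79 and -0.24 to 0.41 when 1 library was left out. Members called in neither fit also turned sign with the GC trend removed: 10 in vehicle against WT (among them Sdhb, Sdhaf3, Uqcrc1, Cox6a1, Cox7c and Cox8a), 7 in TMB against WT and 15 in TMB against vehicle. The cause was not tested. Members with few reads (Cox16, Cox8b, Cox7a1) have the least precise values.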

Other observations

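Regulators of respiratory genes were measured beside the members. Of 16 tested, 4 rose and 7 fell in vehicle against WT (15.7% and 18.3% of all genes). In TMB against WT 1 rose and 1 fell (4.51% and 5.02% of all genes). In TMB against vehicle edgeR called 0 (0.0% of all genes), and 3 had an unadjusted p under 0.05, beside 3064 of all 16782 genes. Ppargc1b, a coactivator of mitochondrial genes, rose in vehicle (log2 fold change of 1.04 ± 0.14, adjusted p = 0.000138) and in TMB against WT (log2 fold change of 0.86 ± 0.13, adjusted p = 0.000511), while its relative Ppargc1a fell in vehicle (log2 fold change of -0.54 ± 0.14, adjusted p = 0.0113). Gabpb1, a subunit of the ETS factor that binds the CCGGAAG core, fell in vehicle (log2 fold change of -0.42 ± 0.09, adjusted p = 0.00563) and had a log2 fold change of -0.22 ± 0.09, adjusted p = 0.13 in TMB against WT, where the activator Yy1 fell (log2 fold change of -0.27 ± 0.07, adjusted p = 0.022). In TMB against vehicle the first 3 were Esrra (log2 fold change of -0.73 ± 0.27, adjusted p = 0.253), Tfb1m (log2 fold change of 0.45 ± 0.15, adjusted p = 0.253) and Gabpb1 (log2 fold change of 0.21 ± 0.09, adjusted p = 0.26).

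The citric acid cycle, which complex II belongs to, had 1 gene up and 4 down of 16 in vehicle against WT (15.7% and 18.3% of all genes). In TMB against WT 2 were down (5.02% of all genes). Idh3a, the catalytic subunit of the NAD-linked isocitrate dehydrogenase, fell in vehicle (log2 fold change of -0.42 ± 0.09, adjusted p = 0.00414) and in TMB (log2 fold change of -0.37 ± 0.08, adjusted p = 0.0101), as did Sucla2, a subunit of succinyl-CoA ligase (log2 fold change of -0.41 ± 0.10, adjusted p = 0.0109 in vehicle; log2 fold change of -0.38 ± 0.10, adjusted p = 0.0253 in TMB). Dld, the dihydrolipoamide dehydrogenase, fell in vehicle (log2 fold change of -0.43 ± 0.10, adjusted p = 0.0071) and had a log2 fold change of -0.21 ± 0.09, adjusted p = 0.173 in TMB against WT and a log2 fold change of 0.22 ± 0.09, adjusted p = 0.258 in TMB against vehicle, where Pdhb, a subunit of pyruvate dehydrogenase, had a log2 fold change of 0.18 ± 0.09, adjusted p = 0.288.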
